A study of Homo sapiens with 12 samples.

Results

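The stability of the transcripts of 9 mRNA-binding regulators was followed after a block of transcription. They are ZFP36, ZFP36L1, ZFP36L2, ELAVL1, HNRNPD, KHSRP, TIA1, TIAL1 and PUM2, proteins that bind elements in 3′ UTRs and act on the decay or translation of the bound mRNA. They were taken by symbol, with no threshold on their values. All 9 were among the 26334 gene symbols of the count table and among the 12032 symbols that were tested, those averaging at least 10 counts per library.

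The cells were shA673-1c, a derivative of A673, an established Ewing sarcoma line, grown with blasticidin and zeocin. Actinomycin D, which intercalates into DNA and blocks transcription, was added at 5 µM for 0, 1, 2 or 4 h, with 3 biological replicates at each time and 12 poly(A)-selected libraries in all. All groups were the same line in the same medium, so the groups differ in time only and the 0 h libraries are the reference. The labels used here name neither the target of the short hairpin RNA nor whether it was induced, and no arm without actinomycin D was analysed here.

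AU-rich elements are stretches of A and U, built around the pentamer AUUUA, in the 3′ UTRs of many short-lived mRNAs. ZFP36 proteins bind them and bring in the deadenylase complex CCR4-NOT, whereas ELAVL1 (HuR) binds many of the same mRNAs and is known to stabilise them. HNRNPD (AUF1) and KHSRP promote the decay of such mRNAs, TIA1 and TIAL1 repress their translation and enter stress granules, and PUM2 binds the Pumilio element and recruits CCR4-NOT. The mRNAs of several of these proteins are themselves known to carry such elements.

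Both kinds of element were searched in the 3′ UTRs of the Ensembl canonical transcripts of GENCODE version 44 on GRCh38, written as DNA and on the sense strand only. The nonamer TTATTTATT, a preferred site of ZFP36 proteins that holds 1 ATTTA, was present once in ZFP36, ZFP36L1, ZFP36L2 and ELAVL1. It was not in the 3′ UTRs of HNRNPD, KHSRP, TIA1, TIAL1 and PUM2. Of the 3′ UTRs of 10817 tested mRNAs, 10.1% held it. In 3′ UTRs within 20% of the member's own length, the share was 5.83% for ZFP36, 9.30% for ZFP36L1, 9.61% for ZFP36L2 and 21.1% for ELAVL1. The pentamer ATTTA was in every member, 13 times each in ELAVL1 and TIA1, 9 times in PUM2 and 8 times in ZFP36L1. ZFP36, ZFP36L2 and TIAL1 held 5 each, HNRNPD held 2 and KHSRP held 1. Of the 10817 3′ UTRs, 75.1% held the pentamer. The 4 windows are shown because these 4 members held the nonamer and the other regulators did not, with the nonamer in capitals:
ZFP36: tatgacgactTTATTTATTctaatatgatt
ZFP36L1: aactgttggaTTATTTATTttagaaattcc
ZFP36L2: actatttaacTTATTTATTatcttgtgaaa
ELAVL1: atttatgtatTTATTTATTgaagtgtgaaa
The ZFP36 window lies at chr19:39409196-39409225 on the plus strand. The others are on the minus strand, at chr14:68788076-68788105 for ZFP36L1, chr2:43223447-43223476 for ZFP36L2 and chr19:7961827-7961856 for ELAVL1.

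The Pumilio element TGTANATA was present 2 times in PUM2 and 2 times in TIAL1, and in no other member. It was held by 31.7% of the 10817 3′ UTRs, and by 45.4% of those within 20% of the length of the 3′ UTR of PUM2. Whether PUM2 acts on its own transcript was not tested. The windows of PUM2 are shown, since its protein binds this element, with the element in capitals:
PUM2, first site: gtttatagagaTGTATATAgaattatagtc
PUM2, second site: tacagaaatatTGTATATActtacatatgt
The PUM2 sites lie at chr2:20251142-20251171 and chr2:20250882-20250911, both on the minus strand. A match of letters is a description and not a bound site.

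Total counts per library ranged from 9147018 to 11194705. Levels are given as CPM, counts scaled to a common library size with TMM factors, which assumes that most genes do not change. The table holds no spike-in, so each rise or fall is relative to the other transcripts. In bulk RNA, fewer cells that carry a transcript and less of it per cell cannot be told apart. The commonly used reference transcripts GAPDH and ACTB rose relative to this scaling, with slopes of 0.15 and 0.12 log2 per hour, and scaling to their counts moved the median slope of all tested genes from 0.0093 to -0.13. For the cell markers alone, CPM was scaled to library totals without TMM factors, and each range spans all 12 libraries and thus all times. Of the Ewing sarcoma markers, STEAP1 ranged from 52.7 to 70.2 CPM and PRKCB from 101 to 178. NR0B1 ranged from 7.45 to 44.7 CPM and NKX2-2 from 0.756 to 8.10. These ranges include any change over time. CD99, a pseudoautosomal gene, was listed at 0 counts in all 12 libraries, and whether this 0 comes from how reads were counted was not tested. The endothelial markers PECAM1, VWF and CDH5 and the leukocyte marker PTPRC reached at most 6, 5, 1 and 3 counts.

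The 9 transcripts separated into 4 that fell and 5 that stayed near the level at 0 h. ZFP36, ZFP36L1, ZFP36L2 and PUM2 fell over 4 h, with slopes from -0.36 to -0.71 log2 per hour. ELAVL1, HNRNPD, TIA1 and TIAL1 rose slightly relative to the TMM scaling, with slopes from 0.038 to 0.066, but the slopes of these 4 were below 0 when libraries were scaled to GAPDH plus ACTB. KHSRP had a slope of 0.010 that did not pass the test. At an adjusted p below 0.05 (edgeR quasi-likelihood test, Benjamini-Hochberg over all tested genes), 32.1% of the tested genes fell and 30.7% rose. The median slope of the 9 was 0.010, beside 0.0093 for all tested genes.

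**Figure D1:**
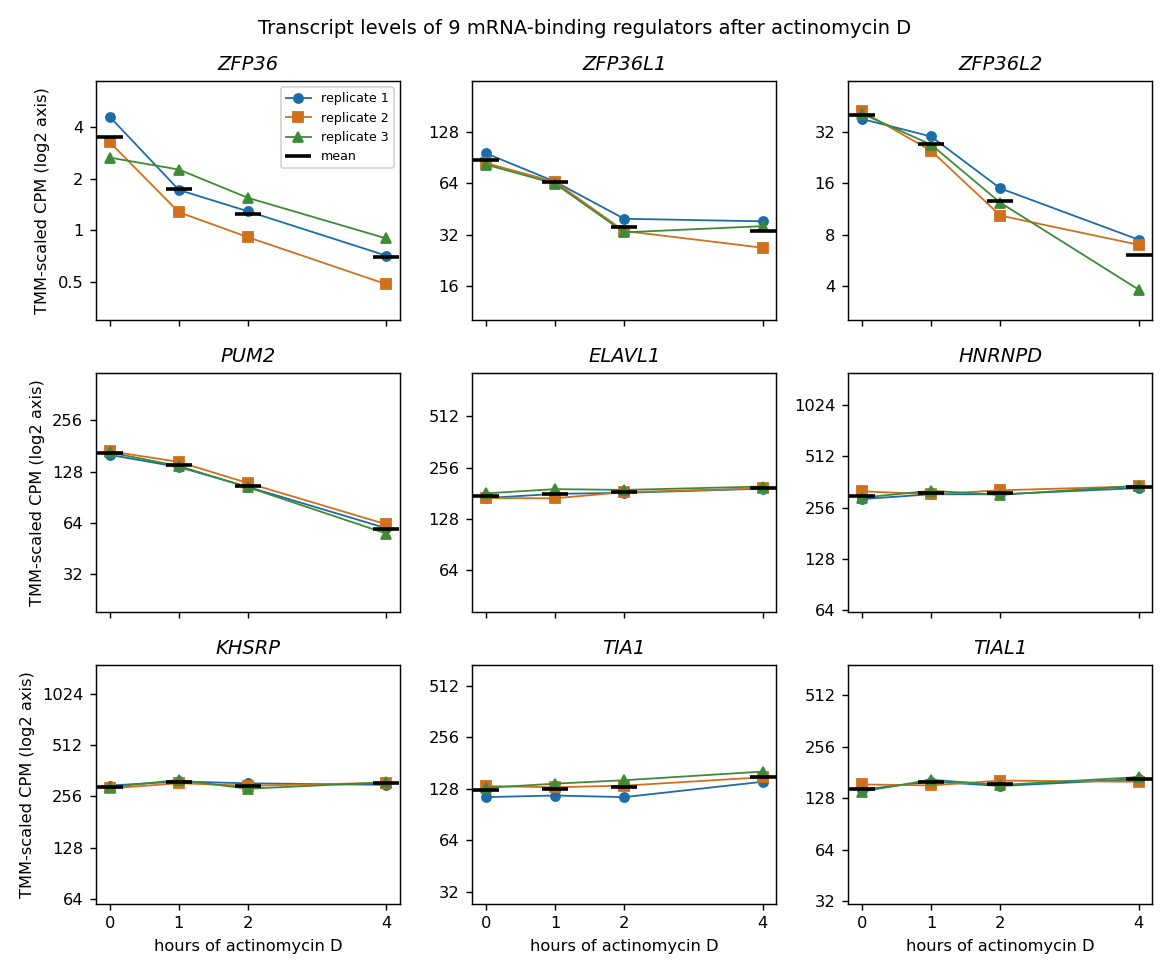
TMM-scaled CPM of the 9 regulators (log2 axis, spanning the same fold range in every panel) against hours of actinomycin D, with 1 line for each of 3 replicates and a bar for the mean. The ZFP36 transcripts and PUM2 decline in all replicates, PUM2 to 55.5 to 62.8 CPM at 4 h, while the other panels are nearly flat.

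ZFP36L2, a paralog of ZFP36 with the same type of CCCH zinc fingers, lies at chr2:43222402-43226606 on the minus strand (GRCh38) and had the steepest slope of the members with all libraries. Without replicate 3 the order turned, with -0.66 for ZFP36L2 and -0.75 for ZFP36. It was at 37.96, 42.1 and 40.8 CPM at 0 h (replicates 1 to 3) and at 29.98, 24.8 and 26.9 CPM at 1 h. At 2 h it was at 14.9, 10.3 and 12.3 CPM, and at 4 h at 7.47, 6.97 and 3.81 CPM. Every library at a later time was below every library at 0 h, and the times did not overlap at all. Of the level at 0 h, 15.2% ± 5.30 (SD, n = 3) remained at 4 h. The slope was -0.71 log2 per hour (standard error 0.050, adjusted p = 8.22e-09, edgeR), 1.40 h as a half-life (95% interval 1.22 to 1.65). Its slope was lower than that of all but 1.60% of the tested genes. At 4 h replicate 3 held 34 counts against 63 and 72 in the others, and the slopes of the single replicates were -0.61, -0.66 and -0.87.

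ZFP36, which encodes tristetraprolin, the protein for which the family is named, lies at chr19:39406847-39409407 on the plus strand and was the scarcest member. It had 47, 34 and 30 counts at 0 h, 18, 13 and 25 at 1 h, 13, 9 and 16 at 2 h, and 6, 5 and 8 at 4 h. Each of the counts at 4 h was below all counts at earlier times, although replicate 3 declined less at 1 h, to 85.2% of its own value at 0 h against 37.3% and 38.9%. Its slope was -0.61 (standard error 0.087, adjusted p = 1.45e-05, edgeR), 1.65 h as a half-life (95% interval 1.26 to 2.37). At these counts the interval is wide, and it overlaps that of ZFP36L2.

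ZFP36L1, the most abundant of the 3 paralogs, lies at chr14:68787662-68793067 on the minus strand, and its loss was not a straight line. It was at 96.1, 84.2 and 82.5 CPM at 0 h, at 65.5, 65.3 and 63.8 CPM at 1 h, at 39.7, 33.7 and 33.1 CPM at 2 h and at 38.4, 26.9 and 36.0 CPM at 4 h. The first 3 times did not overlap, whereas the ranges at 2 h and 4 h did. The level was 40.5% ± 0.738 of that at 0 h after 2 h and 38.5% ± 5.96 after 4 h (SD, n = 3). Over all times the slope was -0.36 (standard error 0.048, adjusted p = 5.94e-06, edgeR), or a half-life of 2.76 h (95% interval 2.15 to 3.83).

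For ZFP36L1 a single half-life is a poor summary. The departure from a straight line passed the test for ZFP36L1 alone among the members (adjusted p = 0.0120, edgeR quasi-likelihood F test), against 2.7% of all tested genes. It held with library totals (adjusted p = 0.0125, edgeR) and with GAPDH plus ACTB (adjusted p = 0.0109, edgeR), but the adjusted p was 0.112 to 0.183 without any one replicate (edgeR). With the replicate number as a block, ZFP36L2 (adjusted p = 0.0352, edgeR) and PUM2 (adjusted p = 0.0213, edgeR) departed too, as did 17.2% of all tested genes.

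PUM2, a Pumilio protein, lies at chr2:20248737-20350844 on the minus strand and declined with the least spread of the falling members. It was at 160, 168 and 166 CPM at 0 h, at 136, 146 and 138 CPM at 1 h, at 104, 109 and 103 CPM at 2 h and at 59.6, 62.8 and 55.5 CPM at 4 h. No 2 times overlapped, and 36.0% ± 2.17 (SD, n = 3) remained at 4 h. The slope was -0.38 (standard error 0.018, adjusted p = 5.39e-10, edgeR), 2.66 h as a half-life (95% interval 2.42 to 2.96). The single replicates gave -0.36, -0.37 and -0.40.

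The falls of ZFP36, ZFP36L1, ZFP36L2 and PUM2 held under every scaling tried, but the half-lives moved with it. Scaling to GAPDH plus ACTB gave half-lives of 1.36 h for ZFP36, 2.01 h for ZFP36L1, 1.18 h for ZFP36L2 and 1.95 h for PUM2. Library totals gave 1.56, 2.50, 1.33 and 2.41 h in the same order. The order from shortest to longest was ZFP36L2, ZFP36, PUM2 and ZFP36L1 under these scalings and DESeq2 size factors with all libraries, and PUM2 and ZFP36L1 differed by less than their standard errors in each.

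**Figure D2:**
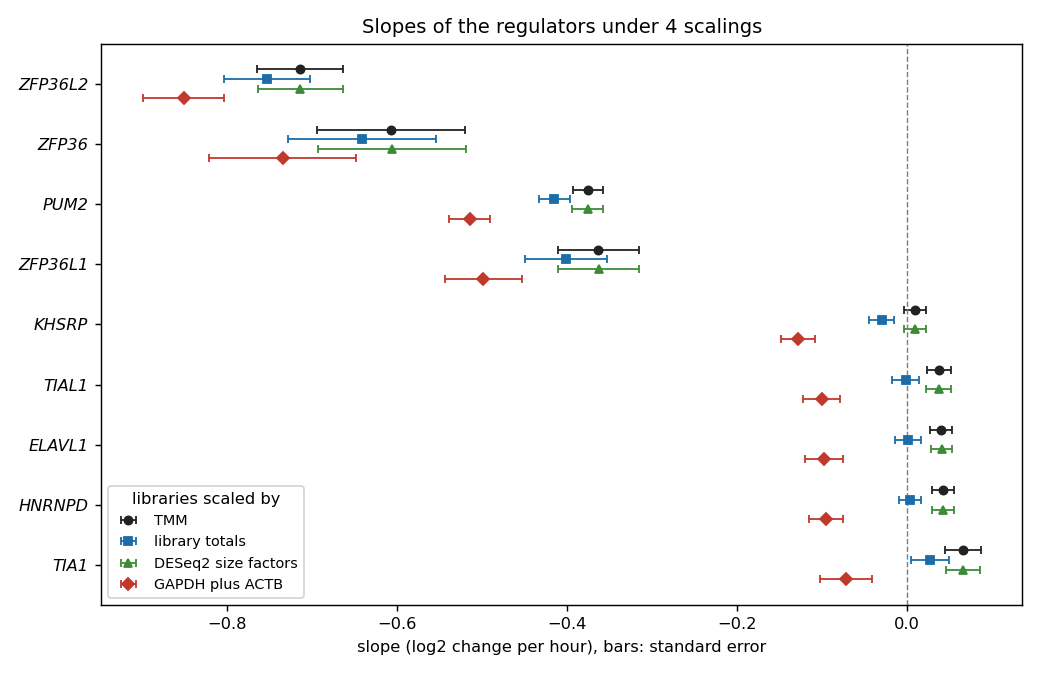
Slopes in log2 change per hour (x axis) of the 9 regulators (y axis) with libraries scaled by TMM, library totals, DESeq2 size factors or GAPDH plus ACTB counts, and bars of 1 standard error. ZFP36, ZFP36L1, ZFP36L2 and PUM2 stay below 0 under all 4, while the other 5 move from above 0 under TMM to between -0.13 and -0.071 under GAPDH plus ACTB.

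ELAVL1, the stabilising protein HuR, lies at chr19:7958573-8005641 on the minus strand, and its transcript stayed near its initial level. It was at 170, 169 and 181 CPM at 0 h, at 179, 169 and 191 CPM at 1 h, at 182, 184 and 189 CPM at 2 h and at 192, 193 and 198 CPM at 4 h. The values at 4 h were above those at 0 h without overlap, at 112.4% ± 2.36 of the same replicate's value at 0 h (SD, n = 3). The slope was 0.041 (standard error 0.013, adjusted p = 0.0109, edgeR). This call was lost without replicate 1 (adjusted p = 0.0657, edgeR), without replicate 2 (adjusted p = 0.0783, edgeR) and with library totals, and with GAPDH plus ACTB the slope was -0.097 (adjusted p = 0.00107, edgeR).

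HNRNPD, the AU-rich binding protein AUF1, lies at chr4:82352498-82373991 on the minus strand. It ranged from 287 to 319 CPM at 0 h, from 306 to 321 at 1 h, from 304 to 323 at 2 h and from 333 to 343 at 4 h. The ranges overlapped except that those at 4 h lay above all others. The slope was 0.043 (standard error 0.013, adjusted p = 0.00725, edgeR), lost without replicate 1 (adjusted p = 0.0542, edgeR) or replicate 3 (adjusted p = 0.0555, edgeR) and with library totals. With GAPDH plus ACTB it was -0.095 (adjusted p = 0.000519, edgeR).

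KHSRP, a KH-domain protein, lies at chr19:6413102-6424811 on the minus strand. It was the flattest member under TMM scaling, though not with library totals or GAPDH plus ACTB. It ranged from 286 to 297 CPM at 0 h, from 306 to 320 at 1 h, from 284 to 306 at 2 h and from 300 to 310 at 4 h. The ranges at 0 h and 4 h did not overlap, with means of 291 and 306 CPM. The slope was 0.010 (95% interval -0.018 to 0.038, adjusted p = 0.522, edgeR), below 0 with library totals at -0.029 and called falling with GAPDH plus ACTB at -0.13 (adjusted p = 1.87e-05, edgeR).

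TIA1, at chr2:70209444-70248628, and TIAL1, at chr10:119573465-119596964, both on minus strands, encode related translational repressors with RNA recognition motifs. TIA1 was at 114, 132 and 129 CPM at 0 h and at 140, 149 and 161 CPM at 4 h. TIAL1 was at 143, 154 and 140 CPM at 0 h and at 165, 159 and 170 CPM at 4 h. In both, the ranges at 0 h and 4 h did not overlap, and the values at 1 h and 2 h overlapped those at 0 h. The slope was 0.066 for TIA1 (standard error 0.021, adjusted p = 0.0112, edgeR) and 0.038 for TIAL1 (standard error 0.014, adjusted p = 0.0302, edgeR). The call for TIAL1 was lost without replicate 1 (adjusted p = 0.117, edgeR) or replicate 3 (adjusted p = 0.218, edgeR), with no count filter (adjusted p = 0.0813, edgeR) and with a minimum mean of 100 counts (adjusted p = 0.0584, edgeR). Both calls were lost with library totals. With GAPDH plus ACTB the slopes were -0.071 for TIA1 (adjusted p = 0.0520, edgeR) and -0.0998 for TIAL1 (adjusted p = 0.000510, edgeR). In GENCODE, TIA1 overlaps C2orf42 on the same strand, which had a mean of 46.2 counts against 1347 for TIA1, and how reads in the overlap were counted is not given in the sources used here.

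Taken interval by interval, the falling members were called at different times. Between 0 and 1 h, ZFP36L1 (log2 change -0.43, adjusted p = 0.0486, edgeR) and PUM2 (-0.24, adjusted p = 0.0436, edgeR) were lower, against 2.24% of tested genes. ZFP36L2 (-0.57, adjusted p = 0.0649, edgeR) and ZFP36 (-0.99, adjusted p = 0.0899, edgeR) did not pass. With the replicate number as a block all 4 passed, at adjusted p of 0.00472 or less (edgeR), against 10.5% of tested genes. Without any one replicate and with no block, 0 members passed (adjusted p 0.136 to 0.311 for ZFP36L1 and PUM2, edgeR). With library totals only PUM2 passed.

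Between 1 and 2 h, ZFP36L2 (-1.12, adjusted p = 0.000356, edgeR), ZFP36L1 (-0.87, adjusted p = 0.000130, edgeR) and PUM2 (-0.40, adjusted p = 0.000288, edgeR) were lower, against 12.5% of tested genes. Between 2 and 4 h, PUM2 (-0.83, adjusted p = 1.01e-06, edgeR) and ZFP36L2 (-1.04, adjusted p = 0.00150, edgeR) were lower, against 18.3%. Per hour of this longer interval the changes were -0.42 for PUM2 and -0.52 for ZFP36L2. ZFP36L1 had a change of -0.080 in that interval (adjusted p = 0.659, edgeR), and 94.6% of the level at 2 h remained at 4 h. Scaled to GAPDH plus ACTB this change was -0.38 and passed (adjusted p = 0.0126, edgeR), and without replicate 2 it was 0.030 (adjusted p = 0.898, edgeR).

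No member was called higher in any single interval by edgeR without a block, where 0.349%, 3.76% and 12% of tested genes were higher between 0 and 1 h, 1 and 2 h, and 2 and 4 h. At an unadjusted p below 0.05 there were 2 members in the first interval (KHSRP and TIAL1), 0 in the second and 2 in the third (HNRNPD and TIA1), where 4.77%, 10.5% and 18.5% of tested genes were higher at that threshold. With the block, KHSRP was higher at 1 h (0.11, adjusted p = 0.0278, edgeR) and lower from 1 to 2 h (-0.085, adjusted p = 0.0482, edgeR), as were 6.18% and 20.7% of tested genes under that fit. HNRNPD (0.12, adjusted p = 0.00394, edgeR) and TIA1 (0.21, adjusted p = 0.000164, edgeR) were then higher from 2 to 4 h, 2 of 9 members beside 25.3% of tested genes. Over the whole course, 4 h against 0 h called the same 4 members lower (31.6% of tested genes) and the same 4 higher (28.7%) as the slopes did.

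Per kilobase of transcript, the members spanned a wide range of abundance. At 0 h HNRNPD had the highest level, 97.6 ± 5.54 CPM per kilobase (SD, n = 3), followed by KHSRP at 68.0 ± 1.30 and TIAL1 at 38.04 ± 1.91. ZFP36L1 at 29.0, ELAVL1 at 28.6, TIA1 at 27.1 and PUM2 at 26.1 followed, and neighbours in the order overlapped among these 4. ZFP36L2 at 10.9 ± 0.567 and ZFP36 at 2.02 ± 0.573 were lower without overlap. Among 11213 tested genes with a canonical transcript, 94.4% were below HNRNPD, 53.8% below ZFP36L2 and 18.3% below ZFP36.

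At 4 h the first 3 places were the same, with HNRNPD at 110.5, KHSRP at 71.5 and TIAL1 at 43.1 CPM per kilobase. TIA1 at 32.4 and ELAVL1 at 32.2 overlapped. ZFP36L1 had moved below both, to 11.2, and overlapped PUM2 at 9.40, while ZFP36L2 was at 1.65 and ZFP36 at 0.399. Summed per kilobase, the 3 ZFP36 paralogs went from 42.0 ± 2.52 CPM at 0 h to 29.9 ± 0.882 at 1 h, 15.9 ± 1.83 at 2 h and 13.2 ± 2.04 at 4 h (SD, n = 3). ZFP36L1 made up 69.2% of this sum at 0 h and 84.3% at 4 h, whereas ZFP36L2 went from 26.1% to 12.7% and ZFP36 from 4.76% to 3.00%.

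**Figure D3:**
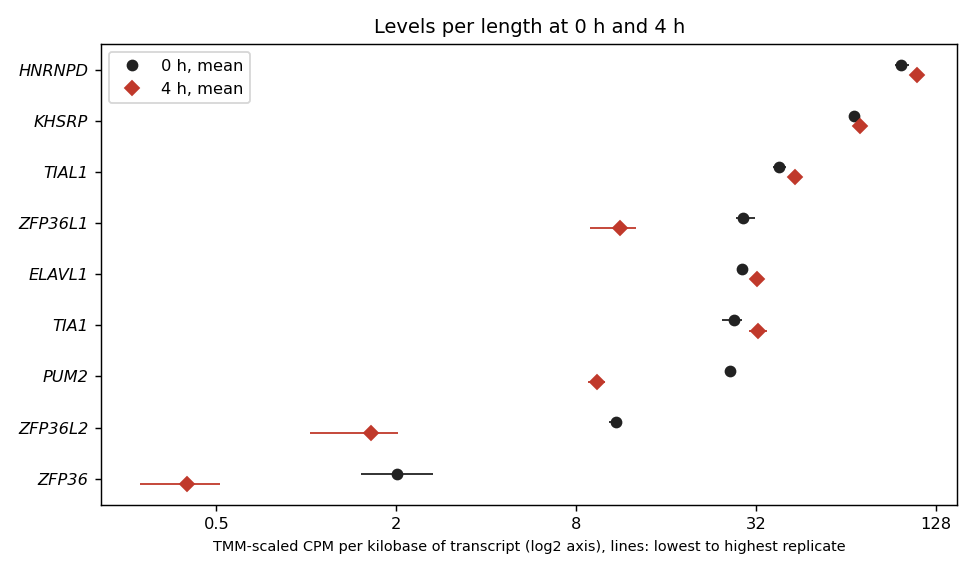
Mean TMM-scaled CPM per kilobase of canonical transcript (log2 axis) of the 9 regulators at 0 h and 4 h, with lines from the lowest to the highest of 3 replicates. ZFP36L1 lies level with ELAVL1 at 0 h (29.0 and 28.6) and below it at 4 h (11.2 and 32.2).

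Ratios of paralogs within a library do not depend on the scaling, and pairs were compared by the slope of the log2 count ratio over time (two-sided exact permutation test over 369600 arrangements, Benjamini-Hochberg over the 5 pairs tested, of which 4 are given here). ZFP36L1 gained on ZFP36L2 by 0.36 log2 per hour (exact p = 4.06e-05, adjusted p = 0.000203, higher in 3 of 3 replicates). The ratio was 1.34, 1.00 and 1.02 on the log2 scale at 0 h and 2.35, 1.94 and 3.22 at 4 h. ZFP36L1 thus had 217% of the ZFP36L2 counts at 0 h and 568% at 4 h, and the replicates at 4 h lay above all earlier ones. Without the 4 h libraries the slope was 0.20 (exact permutation test, adjusted p = 0.0893).

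Neither ratio of ZFP36 passed this test. Its ratio to ZFP36L1 had a slope of -0.18 (exact p = 0.0407, adjusted p = 0.0678), with single replicates from -0.27 to -0.077. With no pseudocount the slope was -0.20 and passed (exact permutation test, adjusted p = 0.0468). Its ratio to ZFP36L2 had a slope of 0.18 (exact p = 0.128, adjusted p = 0.160), with single replicates from 0.0099 to 0.48.

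The ratio of TIA1 to TIAL1 had a slope of 0.028 (exact p = 0.263, adjusted p = 0.263) and single replicates from 0.022 to 0.033. TIA1 had 86.0% of the TIAL1 counts at 0 h and 91.1% at 4 h. A slow drift of that size is not shown to be absent.

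**Figure D4:**
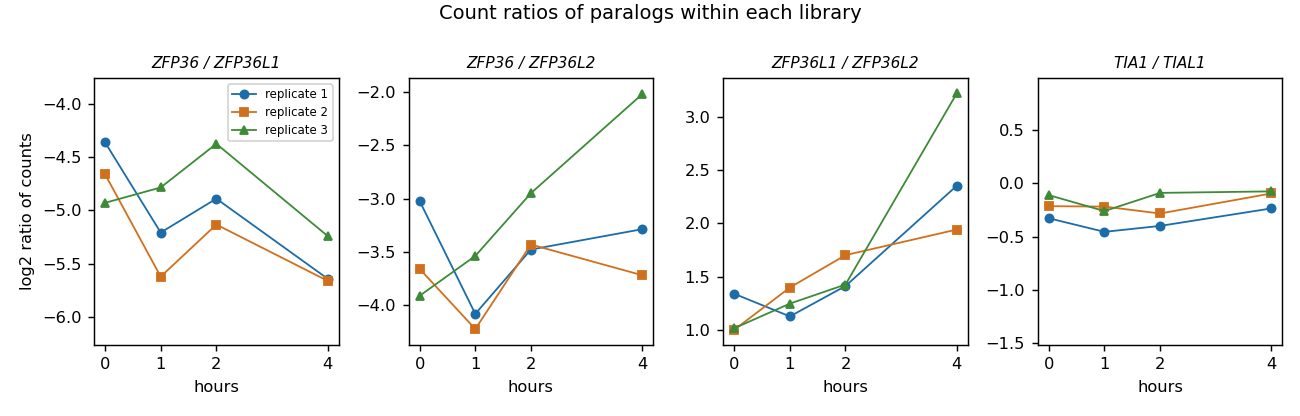
Log2 ratio of counts of 4 pairs of paralogs (y axis, each panel spanning the same range) against hours of actinomycin D, 1 line per replicate. ZFP36L1 over ZFP36L2 goes from between 1.00 and 1.34 at 0 h to between 1.94 and 3.22 at 4 h, while TIA1 over TIAL1 stays between -0.46 and -0.075.

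The other genes of these pathways were described from lists chosen by function, with earlier results of these data known. Of 26 tested mRNAs of other 3′ UTR-binding proteins, 6 fell, 10 rose and 10 did not pass, with a median slope of -0.0049. Under the same fit, 32.1% of all tested genes fell and 30.7% rose. Among those that fell were the endonuclease ZC3H12A (-0.28) and RBM38 (-0.066). The rises were led by YBX1 (0.15), a cold-shock domain protein, and the poly(A)-binding proteins PABPC4 (0.12) and PABPC1 (0.11). Scaled to GAPDH plus ACTB, 21 of the 26 fell and 0 rose, beside 64.2% and 0.931% of all tested genes. The slopes of PABPC4 and PABPC1 were below 0 and that of YBX1 was 0.0077 (adjusted p = 0.708, edgeR), whereas with library totals YBX1 (0.11), PABPC4 (0.082) and PABPC1 (0.074) still rose.

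Among 24 genes of deadenylation and decapping, 16 fell, 1 rose and 7 did not pass, with a median slope of -0.13. For all tested genes the median was 0.0093, with 32.1% falling and 30.7% rising. BTG2 (-0.99), BTG1 (-0.81) and TOB1 (-0.59), adaptors that link CCR4-NOT to mRNAs or their bound proteins, fell most. PAN2, a poly(A) nuclease subunit, rose (0.12), but its slope was -0.018 with GAPDH plus ACTB. The half-lives of BTG2, BTG1 and TOB1 were 1.01, 1.24 and 1.71 h, beside 1.40 h for ZFP36L2 and 1.65 h for ZFP36. These are point estimates, and the order was not tested. BTG2, BTG1 and TOB1 averaged 24.5, 101.8 and 64.75 counts, beside 224.2 for ZFP36L2 and 18.67 for ZFP36.

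Of 23 tested mRNAs known to carry AU-rich elements, 17 fell, 2 rose and 4 did not pass, with a median slope of -0.40. For all tested genes the median was 0.0093, with 32.1% falling and 30.7% rising. The phosphatase DUSP1 (-1.46), the cytokine signalling inhibitor SOCS3 (-1.20) and IER3 (-1.17) fell most. PLAUR (0.11), the urokinase receptor, and CCND1 (0.063), cyclin D1, rose relative to TMM and had slopes of -0.032 and -0.074 with GAPDH plus ACTB. The slopes of ZFP36 (-0.61) and ZFP36L2 (-0.71) lay between those of the first 3 and the median of this list. That of ZFP36L1 (-0.36) was less steep than the median.

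Of 6 transcripts known to be bound by Pumilio proteins, 5 fell, with a median slope of -0.21. Beside this list and those that follow, 32.1% of all tested genes fell and 30.7% rose, with a median of 0.0093. The cell cycle inhibitor CDKN1B (-0.61), E2F3 (-0.43) and the noncoding RNA NORAD (-0.26, listed under its older symbol) were among those that fell. Among 10 tested genes for p38, MK2 and 14-3-3 proteins, which act on ZFP36 proteins by phosphorylation and binding, 3 fell and 6 rose. MAPK14 (-0.15), YWHAH (-0.11) and YWHAG (-0.051) fell, while MAPKAPK3 (0.10), MAPK11 (0.096) and YWHAQ (0.086) rose, all 3 with slopes below 0 under GAPDH plus ACTB. Of 6 stress granule partners of TIA1 and TIAL1, USP10 (-0.26) and ATXN2 (-0.21) fell, ATXN2L (0.054) rose and 3 did not pass, whereas all 6 fell under GAPDH plus ACTB, as did 64.2% of tested genes.

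**Figure D5:**
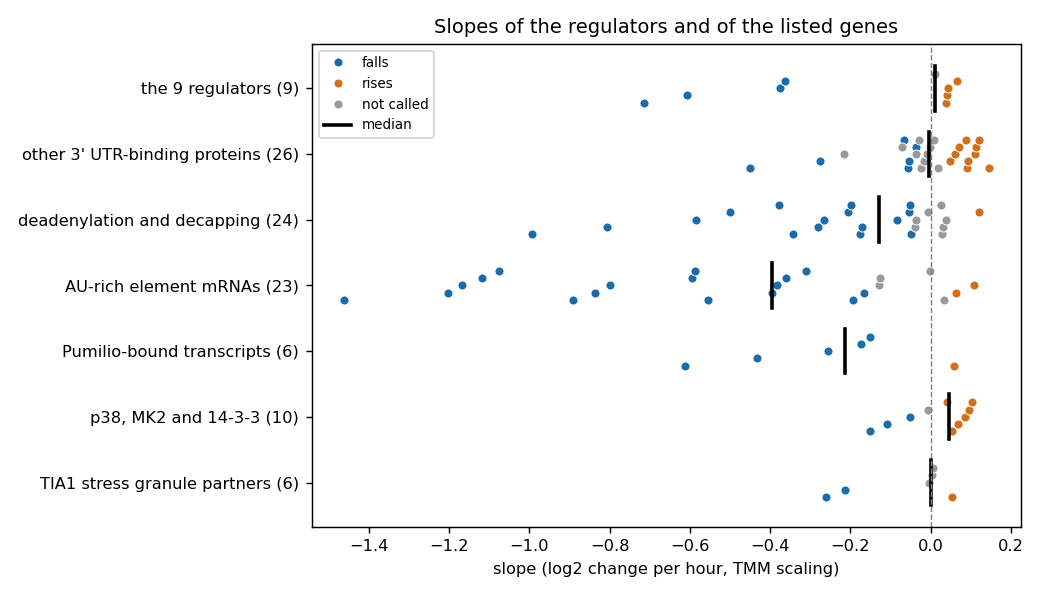
Slope in log2 change per hour under TMM scaling (x axis) of each tested gene in the set of 9 and in 6 functional lists (y axis, number tested in brackets; vertical offsets only separate points), coloured by call, with a bar at the median. The AU-rich element mRNAs have a median of -0.40 and the 9 regulators a median of 0.010.

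Over all tested mRNAs, those with the elements had lower slopes than those without. The 1089 with TTATTTATT had a median slope of -0.049 and 43.0% fell, whereas the 9728 without it had a median of 0.014 and 31.5% fell. The 3428 with TGTANATA had a median of -0.055 and 47.2% fell, against 0.038 and 26.0% for the 7389 without. The 3′ UTRs with TTATTTATT had a median length of 3127 bases against 1292 without it. Those with TGTANATA had a median of 2714 bases against 992 without it. The median of all was 1417 bases, and the part of length was not tested. Among the members, the 3 ZFP36 genes fell with the nonamer shown above and ELAVL1 rose with it, and PUM2 fell and TIAL1 rose with 2 Pumilio elements each.

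Genes whose course was most like a member were found by the root mean square difference of the mean log2 changes at 1, 2 and 4 h, over tested genes averaging at least 100 counts. For PUM2 the nearest were TBP (0.011), INO80 (0.016) and LONRF1 (0.022). For ZFP36L1 they were SSH2 (0.053), KIAA1551 (0.053) and ZBTB7A (0.064). For ZFP36L2 they were LCMT2 (0.063), TOPORS (0.080) and FZD8 (0.088), and for ZFP36, whose counts are low, PNRC2 (0.16), SOWAHC (0.20) and KCNE4 (0.22). For the flat members the nearest were UBE2L3 for ELAVL1 (0.0075), LOC100129034 for HNRNPD (0.0037), VAV1 for KHSRP (0.0078), SLC12A7 for TIA1 (0.0080) and DHRS7B for TIAL1 (0.0068). All these differences were below the standard errors of the member's own changes from 0 h, 0.048 to 0.091 for the flat members. Which gene is nearest is thus uncertain.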

How the data were processed

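The deposited values are whole-number read counts by gene symbol, not normalized, for 12 libraries made with the Illumina TruSeq stranded mRNA kit. FastQC, STAR and build hg19 come from the submitters' processing notes. The study's methods describe Salmon and tximport on Ensembl transcripts of GRCh38 for this kit in general, without naming these libraries, and the notes name another build. Which counter, annotation and strand setting made these counts is thus not given in the sources used here, so reads shared by overlapping genes or paralogs are uncertain. Groups and replicate numbers came from the sample labels.

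The tests used edgeR 4.0.16 (R 4.3.3): TMM factors, genes averaging at least 10 counts (12032), glmQLFit and glmQLFTest, and Benjamini-Hochberg adjustment at 0.05. Time was a number (slope), 4 groups (intervals), or a line plus 2 group terms (departure). A half-life is -1 divided by the slope. The common biological coefficient of variation was 0.0858. Ratios used a pseudocount of 0.5 counts. Slopes of single replicates used log2 CPM with a pseudocount of 0.5 counts.

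Libraries of the same replicate number deviated together from their time means (18 pairs, correlations 0.447 to 0.773, mean 0.597, against -0.291 over 36 other pairs), so the numbers, which come from the labels, were taken to pair the libraries. The fit without the block was the main one, and the calls lost without a replicate are of that fit. With the block and TMM, the rising slopes had adjusted p of 0.000713 for ELAVL1 and 0.000788 for HNRNPD (edgeR). For TIA1 it was 8.38e-05 and for TIAL1 0.0152 (edgeR). Replicates differed beyond sampling noise in all 12 pairs (chi-square per degree of freedom 3.07 to 8.15).

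Transcripts, coordinates and 3′ UTRs are those of GENCODE version 44 on GRCh38, matched by symbol, and not of the build in the labels. CNOT9 and NORAD were listed as RQCD1 and LINC00657. The members and lists were chosen with earlier results of these data known. Named from each list, apart from genes not reported here, were up to 3 steepest falling and 3 steepest rising genes past the threshold, and the 3 genes nearest to each member. Alternatives were library totals, DESeq2 1.42.0 size factors and Wald test, GAPDH plus ACTB scaling, other count filters, limma 3.58.1, a replicate block, leaving out replicates or times, and other pseudocounts. Interval and departure alternatives were added after the data were seen.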

Additional observations from a re-analysis of the deposited data

How the results depend on the processing

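The falling slopes of ZFP36, ZFP36L1, ZFP36L2 and PUM2 kept their direction and stayed past the threshold under each of the 13 alternatives (12 for ZFP36, which a minimum mean of 100 counts leaves out), from -0.75 to -0.33, -0.63 to -0.30, -0.85 to -0.66 and -0.51 to -0.31. The rising calls did not: 4 members rose by slope, but 0 with library totals, GAPDH plus ACTB or no 4 h libraries, 1 without the 0 h libraries, and 1 to 3 without 1 replicate. With no count filter or a minimum mean of 100 counts TIAL1 was lost and 3 rose. Higher at 4 h than at 0 h were 0 members with library totals, 0 with GAPDH plus ACTB and 1 to 2 without 1 replicate. With GAPDH plus ACTB 8 members fell by slope and 8 were lower at 4 h. All tested genes gave 7729 falling and 112 rising by slope and 7612 lower and 111 higher at 4 h with GAPDH plus ACTB, 2242 rising and 2120 higher with library totals, and 2215 falling and 1447 rising without the 4 h libraries. Slopes changed sign for KHSRP (-0.029) and TIAL1 (-0.0012) with library totals, KHSRP without the 0 h libraries (-0.011), and with GAPDH plus ACTB for ELAVL1 (-0.097), HNRNPD (-0.095), KHSRP (-0.13), TIA1 (-0.071) and TIAL1 (-0.0998). The 4 h against 0 h changes did so for KHSRP with library totals (-0.073) and, with GAPDH plus ACTB, for ELAVL1 (-0.38), HNRNPD (-0.37), KHSRP (-0.47), TIA1 (-0.28) and TIAL1 (-0.37).

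Ratio slopes that kept their sign but crossed the threshold were ZFP36 to ZFP36L1 with no pseudocount (-0.20) and ZFP36L1 to ZFP36L2 without the 4 h libraries (0.20), and that of TIA1 to TIAL1 changed sign without the 4 h libraries (-0.020). Of the alternatives chosen after seeing the data, members lower at 1 h went from 2 to 1 with library totals, 4 with GAPDH plus ACTB and 0 to 0 without 1 replicate, members lower from 2 to 4 h from 2 to 5 with GAPDH plus ACTB, and members off a straight line from 1 to 0 to 0 without 1 replicate. ZFP36L1 from 2 to 4 h was 0.030 without replicate 2. With the replicate block 4 members were lower at 1 h and 3 departed from a straight line. By slope 4 fell and 4 rose. The block enters only the test of a ratio and not its slope. ZFP36L1 to ZFP36L2 still passed (exact permutation test within replicates, adjusted p = 0.00145). Beyond the interval and departure calls given with the results, the block changed no call of a member or ratio. The cause of these differences was not tested. Where replicates or times were left out, the fits also had fewer libraries. ZFP36 had the fewest counts of the members, with a mean of 18.7.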
